A study of Rattus norvegicus with 12 samples.

Results

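The mitogen-activated protein (MAP) kinases of the p38 and JNK families and 3 of the phosphatases that act on them were followed in rat lung after trauma and hemorrhagic shock. The 9 genes listed were Mapk12, Mapk14, Mapk3, Mapk8, Mapk9, Mapk10, Dusp1, Dusp5 and Dusp6, and all probe sets that the array's platform annotation assigns to 1 of these symbols alone were taken. That gave 18 of the 8740 probe sets tested, for 7 of the 9 genes, out of 4736 genes with a symbol of their own: 8 probe sets for the p38 genes Mapk12 and Mapk14, 4 for the JNK genes Mapk8 and Mapk9, and 6 for the phosphatases. Mapk3, an ERK gene, and Mapk10, a JNK gene, were not analysed here, so the p38 and JNK genes could not be set beside the ERK gene of the list. A probe set that carries both the Mapk8 and the Mapk10 symbol was left out. Mapk12 was selected on its values in T/HS against T/SS and in T/HS against T/HS-LDL, which are therefore given as a description with no test. Values of the other genes in those comparisons were also known when the list was drawn up.

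Lung RNA was hybridised to Affymetrix RG-U34A arrays, 3 per group. The animals of all 4 groups were male Sprague-Dawley rats of 300 to 420 g, whose age is not given in the sources used here. All rats had a femoral artery and a jugular vein cannulated and a laparotomy, which is the trauma. T/SS rats had a sham-shock period of 90 min with no blood drawn. T/HS rats were bled under pentobarbital into heparin to an arterial pressure of 30 mmHg, were held there for 90 min and then received their shed blood back. The rats of T/SS-LDL and of T/HS-LDL had the same procedures after the mesenteric lymph vessel had been tied and divided. The lungs were removed 3 h after shock or sham shock ended, which is 4.5 h after its start. Per the series' design, T/HS rats had lung injury, and the ligated shocked rats had none that could be measured, so that T/HS against T/HS-LDL addresses lung injury. T/HS-LDL against T/SS-LDL addresses hemorrhage alone. T/HS and T/HS-LDL also differ in ligation, so injury and ligation cannot be told apart in that comparison. The labels of the sham groups state no heparin, and heparin and shock cannot be told apart either.

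MAP kinases are the last kinases of a cascade in which a MAP kinase kinase kinase activates a MAP kinase kinase, which in turn phosphorylates a threonine and a tyrosine of the MAP kinase. ERKs respond mainly to growth factors, and p38 kinases and JNKs mainly to inflammatory cytokines and cell stress. In lung, p38 and JNK signalling is known for its part in cytokine production and in the response of epithelium and endothelium to injury. Dual-specificity phosphatases (DUSPs) remove both phosphates and so switch the kinases off, and several of them are themselves induced by the kinases they inactivate. Activity is set by phosphorylation, which an RNA array does not measure, and all values here are transcript levels.

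Some arrays hardly differed from each other. Replicates 2 and 3 of T/SS did so, as did replicates 1 and 3 in the remaining groups, with a robust SD of log2 differences between 0.00993 and 0.0548. Any other array pair of the same group had 0.164 to 0.232. The arrays of each near-identical pair were averaged. The 8 samples so made, 2 in each group, are called below by their replicate numbers. Array medians lay between 651 and 680 intensity units. Lung markers were present: the 4 measured alveolar type II genes, which make surfactant, summed to 108239 to 121762 intensity units in the 8 samples. The 7 measured neutrophil markers summed to 21265 and 26779 units in T/SS, 38504 and 77425 in T/HS, 33294 and 44166 in T/SS-LDL, and 64101 and 73201 in T/HS-LDL. In whole lung, fewer cells of a type and less RNA per cell cannot be told apart.

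The promoters of Mapk12, the kinase set against the others, and of the 3 phosphatases, which are known as induced genes, are shown. Of the 9 genes, 7 matched an entry in RefSeq's GRCr8 promoter table. Mapk3 and Mapk9 did not. Each line gives the 250 bases before the gene's start, 5′ to 3′, on the gene's strand. Capitals mark matches to the cyclic AMP response element (CRE, TGACGTCA), to the E-box CACGTG, or to the CArG box bound by serum response factor, each of which was searched on both strands. The Mapk12 window (chr7:122096308-122096557, minus strand) held 1 E-box, 82 to 77 bases before the start.
Mapk12: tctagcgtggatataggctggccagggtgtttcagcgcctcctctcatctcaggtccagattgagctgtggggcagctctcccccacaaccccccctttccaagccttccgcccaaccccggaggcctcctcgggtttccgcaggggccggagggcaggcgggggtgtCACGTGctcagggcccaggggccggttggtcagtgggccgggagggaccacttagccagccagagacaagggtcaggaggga
The Dusp1 window (chr10:17184603-17184852, plus strand) held a CRE 124 to 117 bases and an E-box 107 to 102 bases before the start.
Dusp1: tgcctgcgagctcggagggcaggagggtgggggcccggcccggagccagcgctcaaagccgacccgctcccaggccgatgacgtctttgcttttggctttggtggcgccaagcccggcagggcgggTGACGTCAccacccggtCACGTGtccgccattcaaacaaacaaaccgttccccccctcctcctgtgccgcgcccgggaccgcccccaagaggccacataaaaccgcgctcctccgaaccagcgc
The Dusp5 window (chr1:262543524-262543773, plus strand) held 2 CArG boxes that adjoin without overlap, at 82 to 73 and 72 to 63 bases before the start.
Dusp5: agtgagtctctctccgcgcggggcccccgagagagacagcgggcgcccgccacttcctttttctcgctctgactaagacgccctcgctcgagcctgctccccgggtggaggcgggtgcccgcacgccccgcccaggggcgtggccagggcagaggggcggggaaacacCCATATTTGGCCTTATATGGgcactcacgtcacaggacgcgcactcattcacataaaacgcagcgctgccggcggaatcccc
The Dusp6 window (chr7:35979354-35979603, plus strand) held none of the 3 motifs.
Dusp6: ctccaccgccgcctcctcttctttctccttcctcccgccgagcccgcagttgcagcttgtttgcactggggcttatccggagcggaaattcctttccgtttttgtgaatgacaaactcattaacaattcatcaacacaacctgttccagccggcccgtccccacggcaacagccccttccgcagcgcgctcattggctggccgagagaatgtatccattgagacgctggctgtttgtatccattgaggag
Over the 33469 promoters of the table, a CRE was present in 1.59%, this E-box in 5.59% and a CArG box in 1.5%. No motif of the 3 was found in the windows of Mapk14 and Mapk8, and the Mapk10 window held a CRE 78 to 71 bases before the start. These matches describe letters in the windows and no binding was measured.

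Mapk12 encodes p38 gamma, the p38 kinase best known from skeletal muscle. On probe set rc_AA849716_at its level, in log2 intensity, was 10.54 in T/SS replicate 1 and 10.35 in T/SS replicates 2 and 3. It was 9.65 in T/HS replicate 2 and 9.46 in T/HS replicates 1 and 3. T/SS-LDL had 10.28 in replicate 2 and 10.31 in replicates 1 and 3, and T/HS-LDL had 10.31 and 10.38 in the same order. Both T/HS samples lay below all 6 other samples, and the samples of the other groups ranged from 10.28 to 10.54. On the linear scale the T/HS samples were at 707 and 802 intensity units, and the other 6 ranged from 1245 to 1485. All 3 T/HS arrays taken singly were low, at 9.42, 9.51 and 9.65. The log2 difference of T/HS from T/SS was -0.89 ± 0.11 (SE, n = 2 samples per group), a ratio of 0.541. From T/HS-LDL it was -0.79 ± 0.11, a ratio of 0.58. These comparisons share the T/HS samples and are the values that selected the gene. Within groups, the samples of this probe set differed by at most 0.19, a gap that 78.5% of all probe sets reached or passed.

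**Figure D1:**
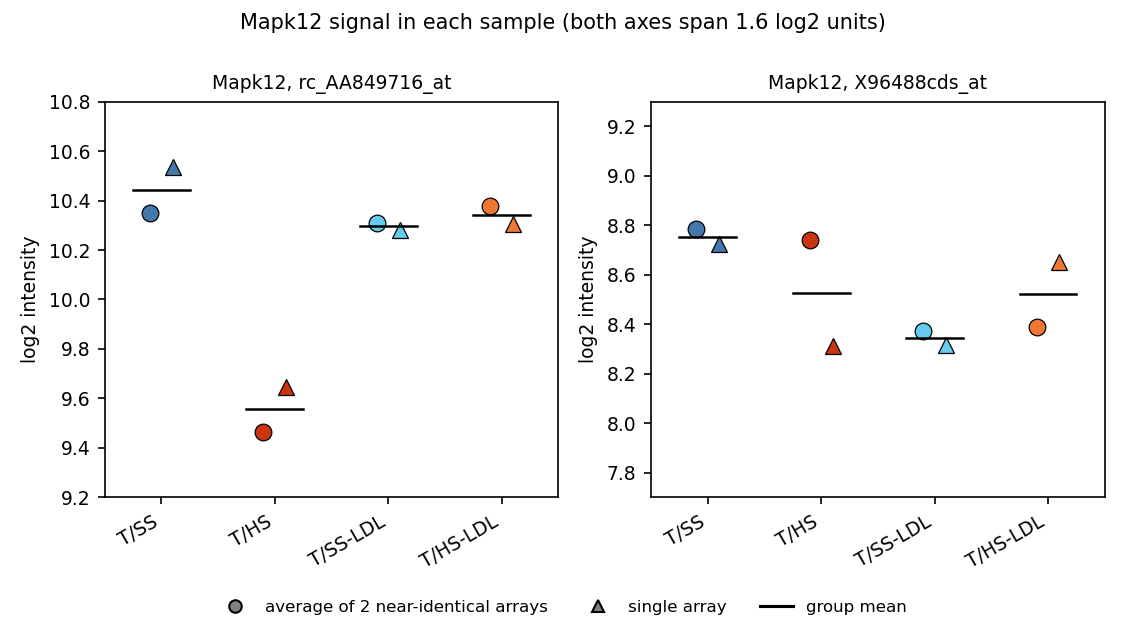
Log2 intensity of both Mapk12 probe sets by group, with circles for averaged near-identical arrays, triangles for single arrays and bars for group means. On rc_AA849716_at both T/HS samples, at 9.46 and 9.65, lie below the other 6, which start at 10.28, while on X96488cds_at the T/HS samples, at 8.31 and 8.74, span nearly the whole range.

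In the comparisons that did not select it, Mapk12 on rc_AA849716_at differed little. They share T/HS-LDL or T/SS with the contrasts that selected the gene, so their values are not independent of that choice. T/HS-LDL against T/SS-LDL, shock with the lymph vessel tied, gave 0.05 ± 0.11 (SE over 2 samples per group; adjusted p 0.998 by limma). T/SS-LDL against T/SS, ligation without shock, gave -0.15 ± 0.11 (SE, limma adjusted p 0.896). The order of the group means from low to high was T/HS at 9.56, T/SS-LDL at 10.30, T/HS-LDL at 10.34 and T/SS at 10.44. T/HS-LDL overlapped with both of its neighbours in that order, and both T/SS-LDL samples lay below both T/SS samples. The interaction, which is the difference of T/HS from T/SS minus that of T/HS-LDL from T/SS-LDL, was -0.93 ± 0.16 and rests on the T/HS samples that selected the gene.

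The second Mapk12 probe set did not follow the first. X96488cds_at read 8.72 in T/SS replicate 1 and 8.78 in T/SS replicates 2 and 3, against 8.31 in T/HS replicate 2 and 8.74 in T/HS replicates 1 and 3. The T/SS-LDL samples were at 8.31 and 8.37, and those of T/HS-LDL at 8.65 in replicate 2 and 8.39 in replicates 1 and 3. Here 1 T/HS sample lay with the T/SS samples and the other with the T/SS-LDL samples. T/HS differed from T/SS by -0.23 ± 0.16 (SE over 2 samples per group) and from T/HS-LDL by 0.01 ± 0.16, given with no test since these contrasts selected the gene. Its largest difference was that of T/SS-LDL from T/SS, -0.41 ± 0.16, with limma p 0.0393 before and 0.896 after adjustment over all probe sets. This probe set had a mean of 371 intensity units, under every array's median, and rc_AA849716_at had 1143. Pearson's r between both probe sets was 0.04 over the 8 samples. The low T/HS level of Mapk12 therefore rests on 1 of its 2 probe sets, and which of them tracks the transcript was not tested.

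Mapk14 encodes p38 alpha, the p38 kinase found in most cells. None of its 6 probe sets had a T/HS difference as large as that of Mapk12 on rc_AA849716_at. On the brightest, U73142_g_at, T/SS was at 12.46 and 12.43, T/HS at 12.53 and 12.46, T/SS-LDL at 12.51 and 12.76, and T/HS-LDL at 12.82 and 12.54 (replicate 1 or 2 first in each group). The T/HS samples lay on both sides of the higher T/SS sample. T/HS differed from T/SS by 0.05 ± 0.13 (SE, 95% interval -0.27 to 0.37, limma adjusted p 0.946). U73142_at, from the same source sequence (r 0.94 over 8 samples), read 7.17 and 7.09 in T/HS, just under 7.20 and 7.19 in T/SS. Both T/HS samples lay below all others on U73142_at, a dim probe set with a mean of 160 intensity units. Taken singly, the array of T/HS-LDL replicate 1, at 7.09, lay below T/HS replicates 1 and 2, at 7.14 and 7.17. T/HS differed from T/HS-LDL by -0.32 ± 0.17 on U73142_at and by -0.18 ± 0.13 on U73142_g_at (limma adjusted p 0.775 and 0.81). rc_AI137862_s_at was at 12.17 and 11.92 in T/SS and at 12.11 and 11.98 in T/HS, a difference of 0.00 ± 0.15 (SE, limma adjusted p 0.999). rc_AI171630_s_at held the lowest Mapk14 difference. It read 11.58 and 11.50 in T/SS, 11.54 and 11.02 in T/HS, 11.50 and 11.92 in T/SS-LDL, and 11.79 and 11.62 in T/HS-LDL, so that 1 T/HS sample alone was low. T/HS differed there by -0.26 ± 0.21 from T/SS and by -0.43 ± 0.21 from T/HS-LDL (limma adjusted p 0.775 for the latter). Without T/HS replicates 1 and 3 the latter was -0.17, and without T/HS replicate 2 it was -0.69. The other 2 probe sets, rc_AA924542_s_at and U91847_s_at, had overlapping T/HS and T/SS samples.

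The JNK genes, whose kinases phosphorylate Jun, gave differences of either sign between T/HS and T/SS. For Mapk8, which encodes JNK1, L27129_at read 8.34 and 8.15 in T/SS, 8.18 and 8.44 in T/HS, 8.40 and 7.99 in T/SS-LDL, and 8.16 and 8.22 in T/HS-LDL. All 4 groups overlapped, and T/HS differed from T/SS by 0.06 ± 0.17 (SE, 95% interval -0.33 to 0.46, limma adjusted p 0.944). For Mapk9, which encodes JNK2, L27112_s_at read 7.96 and 7.63 in T/SS against 7.84 and 7.98 in T/HS, a difference of 0.12 ± 0.14 (SE, limma adjusted p 0.836). The Mapk9 probe set rc_AI231354_g_at read 9.65 and 9.40 in T/SS, 9.64 and 8.79 in T/HS, 9.86 and 9.74 in T/SS-LDL, and 9.86 and 9.60 in T/HS-LDL. Only the T/HS sample of replicates 1 and 3 was low there, and its partner lay at the level of T/SS replicate 1. T/HS differed from T/HS-LDL by -0.51 ± 0.27 on this probe set, with -0.09 without T/HS replicates 1 and 3 and -0.94 without T/HS replicate 2. rc_AI231354_at, made from the same source sequence, had overlapping T/HS and T/SS samples.

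Set side by side, the 10 probe sets of Mapk14, Mapk8 and Mapk9 had a median T/HS difference from T/SS of 0.00, from -0.31 to 0.16, with 5 higher and 5 lower. Over all 8740 probe sets the median was -0.01, and the 5th and 95th percentiles were -0.41 and 0.38. Mapk12 on rc_AA849716_at, at -0.89, lay below all 10, but on X96488cds_at, at -0.23, it lay within their range. Relative to the T/SS mean, T/HS replicate 2 had Mapk12 at -0.79 on rc_AA849716_at and the other kinases from -0.08 to 0.14. T/HS replicates 1 and 3 had Mapk12 at -0.98 on that probe set and the other kinases from -0.74 to 0.29. The gap to the lowest of them, Mapk9 on rc_AI231354_g_at, was narrower in that sample. On X96488cds_at Mapk12 was at -0.44 in T/HS replicate 2 and at -0.01 in T/HS replicates 1 and 3. Against T/HS-LDL the other 10 probe sets had a median of -0.10, from -0.51 to 0.12, with 2 higher and 8 lower in T/HS. Of all probe sets, 45.2% were lower in that contrast. In T/HS-LDL against T/SS-LDL the median of the 10 was 0.00, from -0.10 to 0.16. In T/SS-LDL against T/SS it was 0.13, from -0.05 to 0.30, with 7 of 10 higher beside 44.7% of all probe sets. The 10 probe sets stand for Mapk14, Mapk8 and Mapk9 alone, and most are of Mapk14, so they are not 10 independent units. Of the 10, U73142_at, U91847_s_at, L27129_at, L27112_s_at and rc_AI231354_at had means of 160 to 301 intensity units, under every array's median. L27129_at is the only Mapk8 probe set. How far such dim probe sets can follow a change was not tested. Being chosen for the difference, Mapk12 was not tested against the other kinases.

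**Figure D2:**
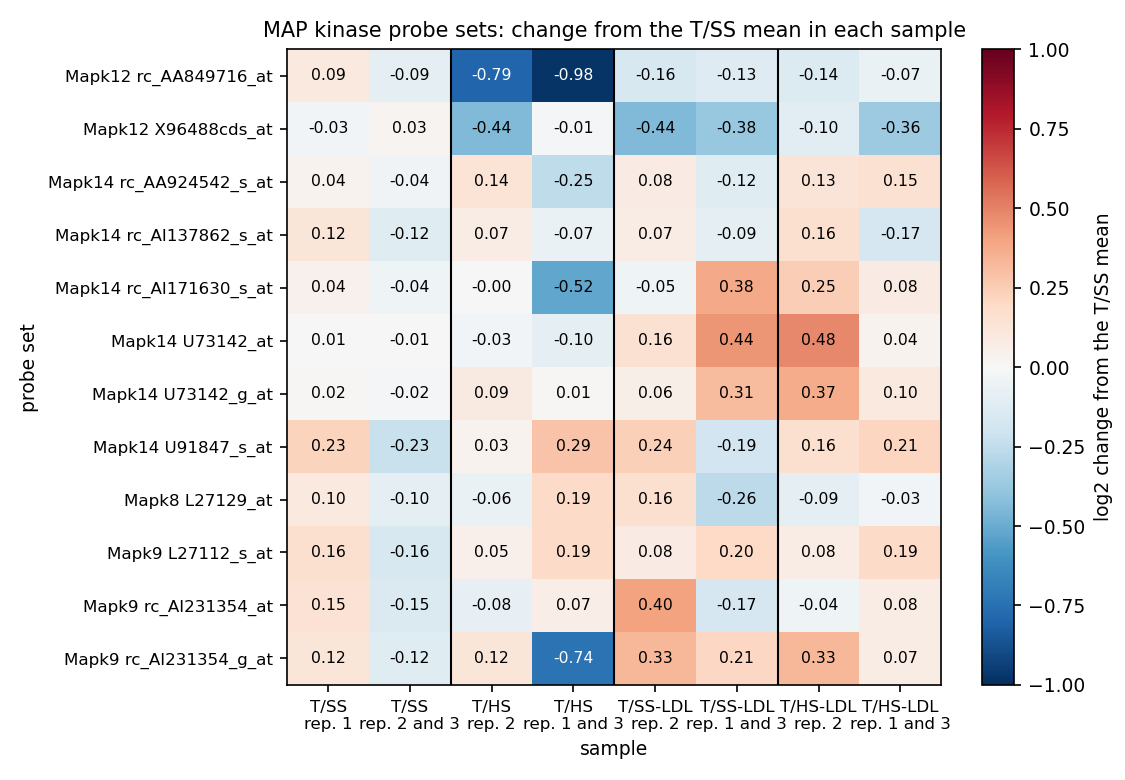
Heat map of the log2 change from the T/SS mean for each MAP kinase probe set (rows) in each of the 8 samples (columns), with blue below and red above that mean. In both T/HS samples the change of rc_AA849716_at, at -0.79 and -0.98, is the lowest, and in T/HS replicates 1 and 3 Mapk9 on rc_AI231354_g_at comes next at -0.74.

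The genes whose levels followed Mapk12 most closely on rc_AA849716_at were named by Pearson's r over the 8 samples, among 3629 probe sets of other genes with a mean at or above the array median. They were C8h15orf61 with r 0.995, Hnrnpc, an RNA-binding protein of the nucleus, with 0.970, Stx8, a vesicle fusion protein, with 0.969, Zfp706 with 0.968, Pdia6, a protein disulfide isomerase, with 0.958, and Gstm7, a glutathione transferase, with 0.953. Their T/HS differences from T/SS were -0.58, -0.55, -0.29, -0.74, -0.38 and -0.27 in that order, all smaller in size than that of Mapk12. All 8 points come from 4 groups, so these values mainly mark genes that were low in both T/HS samples. Of all probe sets, 675 (7.72%) had both T/HS samples below all others, and 2 of the 18 members did, Mapk12 on rc_AA849716_at and Mapk14 on U73142_at. Both T/HS samples lay above all others in 601 probe sets (6.88%) and in 0 members.

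Markers of muscle, where p38 gamma is abundant, are given beside Mapk12. The 12 measured skeletal muscle markers, of 14 listed, summed to 4760 and 4863 intensity units in T/SS and to 4774 and 5357 in T/HS, with 4251 to 5357 over all samples. Their median T/HS difference from T/SS was -0.01, with 6 higher and 6 lower. Averaged over the 12 probe sets, the skeletal muscle sums lie below every array's median. Whether such dim probe sets could show a change in muscle content was not tested. The 12 measured heart muscle markers, of 13 listed, summed to 11527 and 23990 units in T/SS, 22313 and 26391 in T/HS, 24975 and 28784 in T/SS-LDL, and 8167 and 21851 in T/HS-LDL. Of the 6 measured smooth muscle markers, of 7 listed, 1 was higher and 5 lower in T/HS against T/SS, with a median of -0.22. In T/HS-LDL against T/SS-LDL all 6 were lower, with a median of -0.42. Against T/HS-LDL, 3 were higher and 3 lower in T/HS, with a median of 0.07. RMA gives every probe set a level above 0, so no marker was at 0. All 7 measured neutrophil markers, of 10 listed, had a higher level in T/HS than in T/SS, with a median difference of 1.36. The same 7 of 7 were higher in T/HS-LDL against T/SS-LDL, with a median of 0.94, and in T/SS-LDL against T/SS, with a median of 0.77. Against T/HS-LDL, 2 of the 7 were higher and 5 lower in T/HS, with a median of -0.60. In T/HS against T/SS the 4 measured alveolar type I markers, of 5 listed, were all lower, with a median of -0.38, and so were the 3 measured endothelial markers, of 6 listed, with a median of -0.36. Against T/HS-LDL those medians were -0.03 and 0.06. The part of changing cell numbers in the Mapk12 difference was not tested.

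Dusp1, also known as MKP-1, inactivates p38 and JNK as well as ERK and is an immediate early gene. Its 3 probe sets moved together over the 8 samples, with r from 0.91 to 0.97. On U02553cds_s_at, T/SS was at 13.14 in replicate 1 and 12.27 in replicates 2 and 3, and T/HS at 12.84 in replicate 2 and 13.04 in replicates 1 and 3. T/SS-LDL was at 12.90 in replicate 2 and 12.42 in replicates 1 and 3, and T/HS-LDL at 13.19 and 12.43 in the same order. Both T/HS samples lay between the T/SS samples, which were 0.87 apart. T/HS differed from T/SS by 0.24 ± 0.35 (SE, 95% interval -0.60 to 1.07, limma adjusted p 0.892). On S74351_s_at and S81478_s_at the difference was 0.19 ± 0.41 and 0.19 ± 0.38. The largest gap between samples of a group was 0.87 to 1.16 on the 3 probe sets, which 3.49% to 7.03% of all probe sets reached, against a median of 0.30 over all.

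Dusp5, a nuclear phosphatase specific for ERK, hardly varied. AF013144_at read 10.29 in T/SS replicate 1 and 10.17 in T/SS replicates 2 and 3, and 10.24 in both T/HS samples. It was 10.32 and 10.27 in T/SS-LDL and 10.18 and 10.28 in T/HS-LDL, a range of 0.15 over all 8 samples. T/HS differed from T/SS by 0.01 ± 0.10 (SE, 95% interval -0.22 to 0.24, limma adjusted p 0.986). Its gap between samples of a group was among the small ones, reached by 92.7% of probe sets.

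Dusp6, also known as MKP-3, is a cytoplasmic phosphatase specific for ERK and is induced by ERK signalling. It varied most among the members. U42627_at read 10.02 in T/SS replicate 1 and 10.87 in T/SS replicates 2 and 3, and 11.37 in T/HS replicate 2 and 10.88 in T/HS replicates 1 and 3. In T/SS-LDL it was 10.92 in replicate 2 but 8.98 in replicates 1 and 3. In T/HS-LDL it was 9.86 in replicate 2 and 11.93 in replicates 1 and 3. The lowest and the highest sample of the study thus both came from ligated rats, and T/HS lay above T/SS by a margin of 0.01. The second probe set, X94185cds_s_at, gave the same picture (r 0.98 over 8 samples), with 9.85 and 10.55 in T/SS, 10.97 and 10.65 in T/HS, 10.67 and 9.04 in T/SS-LDL, and 9.29 and 11.47 in T/HS-LDL. Gaps of 2.07 and 2.18 between samples of a group were reached by 0.675% and 0.549% of all probe sets. The arrays averaged into 1 sample differed by at most 0.04 and 0.18 on these probe sets.

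No Dusp6 difference held up against this spread. On U42627_at T/HS differed from T/SS by 0.68 ± 0.82 (SE, 95% interval -1.26 to 2.62, limma adjusted p 0.856), by 0.26 without T/SS replicate 1 and by 1.10 without T/SS replicates 2 and 3. T/HS-LDL differed from T/SS-LDL by 0.94 ± 0.82 (limma adjusted p 0.998), and the difference was -0.03 without T/SS-LDL replicates 1 and 3 and -0.09 without T/HS-LDL replicates 1 and 3. It was 1.92 without T/SS-LDL replicate 2 and 1.98 without T/HS-LDL replicate 2. T/HS differed from T/HS-LDL by 0.23 ± 0.82 (limma adjusted p 0.963), with 1.27 without T/HS-LDL replicates 1 and 3 and -0.80 without T/HS-LDL replicate 2. All 6 phosphatase probe sets were on the higher side in T/HS against T/SS, beside 48.4% of all probe sets. Their median was 0.21 and their range 0.01 to 0.68, but they stand for 3 genes and none passed the test.

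**Figure D3:**
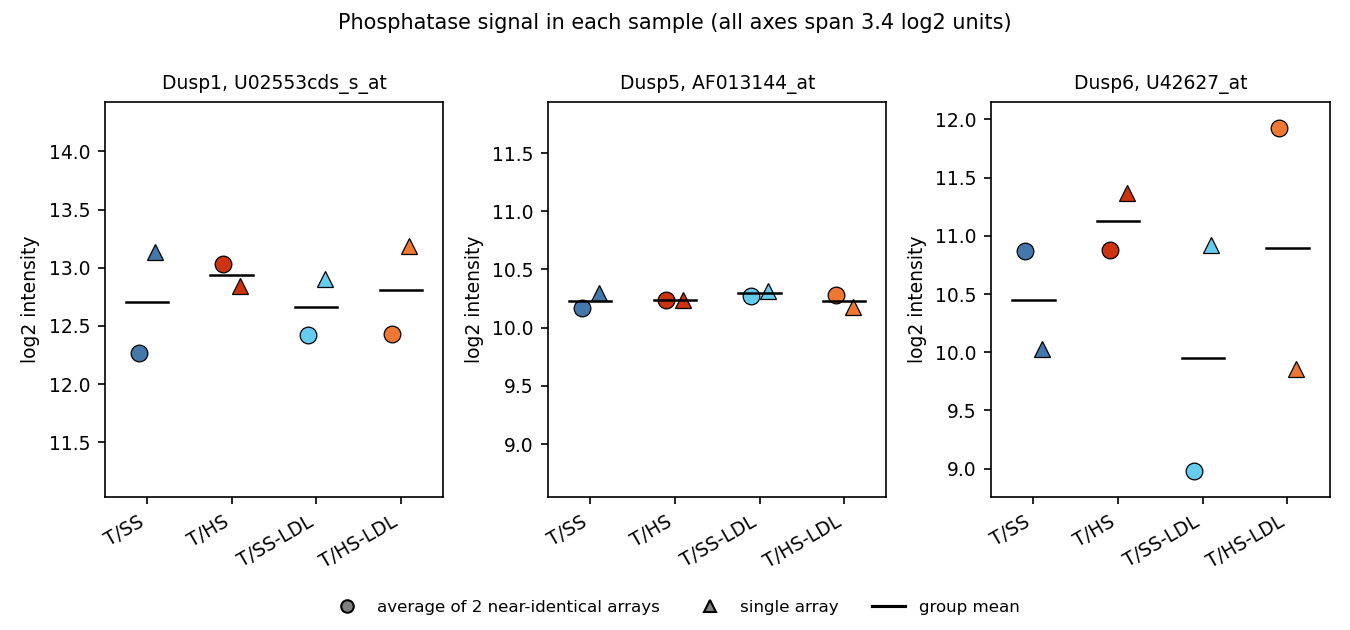
Log2 intensity of 1 probe set each of Dusp1, Dusp5 and Dusp6 by group, with circles for averaged near-identical arrays, triangles for single arrays and bars for group means. Dusp5 stays within 0.15, the Dusp1 samples of T/SS lie 0.87 apart, and Dusp6 has its lowest level in T/SS-LDL replicates 1 and 3 (8.98) and its highest in T/HS-LDL replicates 1 and 3 (11.93).

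Calls among the members were set against the whole array. With limma and adjustment over 8740 probe sets, 0 probe sets (0%) passed 0.05 in each of the 5 contrasts, members included. At an unadjusted limma p under 0.05, T/HS against T/SS called 769 probe sets (8.8%) and T/HS against T/HS-LDL 557 (6.37%), and the interaction called 261 (2.99%). Each of these holds 1 member, the Mapk12 probe set that was selected on the T/HS samples, from which nothing is read, and 0 of the other 17 members. T/HS-LDL against T/SS-LDL called 331 (3.79%) and 0 of 18 members. T/SS-LDL against T/SS called 370 (4.23%) and 1 member, Mapk12 on X96488cds_at. For the member probe sets of genes other than Mapk12, the limma adjusted p for T/HS against T/SS lay between 0.746 and 0.999. For T/HS against T/HS-LDL it lay between 0.775 and 0.994.

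Groups whose samples did not overlap were counted in the same way. In T/HS against T/SS both samples of T/HS were higher in 19.2% of all probe sets and in 2 members, the Dusp6 probe sets, and lower in 20.9% and in 2 members, Mapk12 on rc_AA849716_at and Mapk14 on U73142_at. In T/HS against T/HS-LDL, the first was higher in 18.4% and in 0 members, and lower in 15.7% and in 4 members: Mapk12 on rc_AA849716_at and Mapk14 on rc_AI171630_s_at, U73142_at and U73142_g_at. T/HS-LDL was higher than T/SS-LDL in 16.8% and in 2 members, Mapk12 on X96488cds_at and Mapk14 on rc_AA924542_s_at, and lower in 12.4% and in 0 members. T/SS-LDL was higher than T/SS in 16.2% and in 3 members, Mapk14 on U73142_at and U73142_g_at and Mapk9 on rc_AI231354_g_at. It was lower in 24.5% and in 2 members, both Mapk12 probe sets. With 2 samples against 2, an exact permutation test cannot give a p under 0.333.

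**Figure D4:**
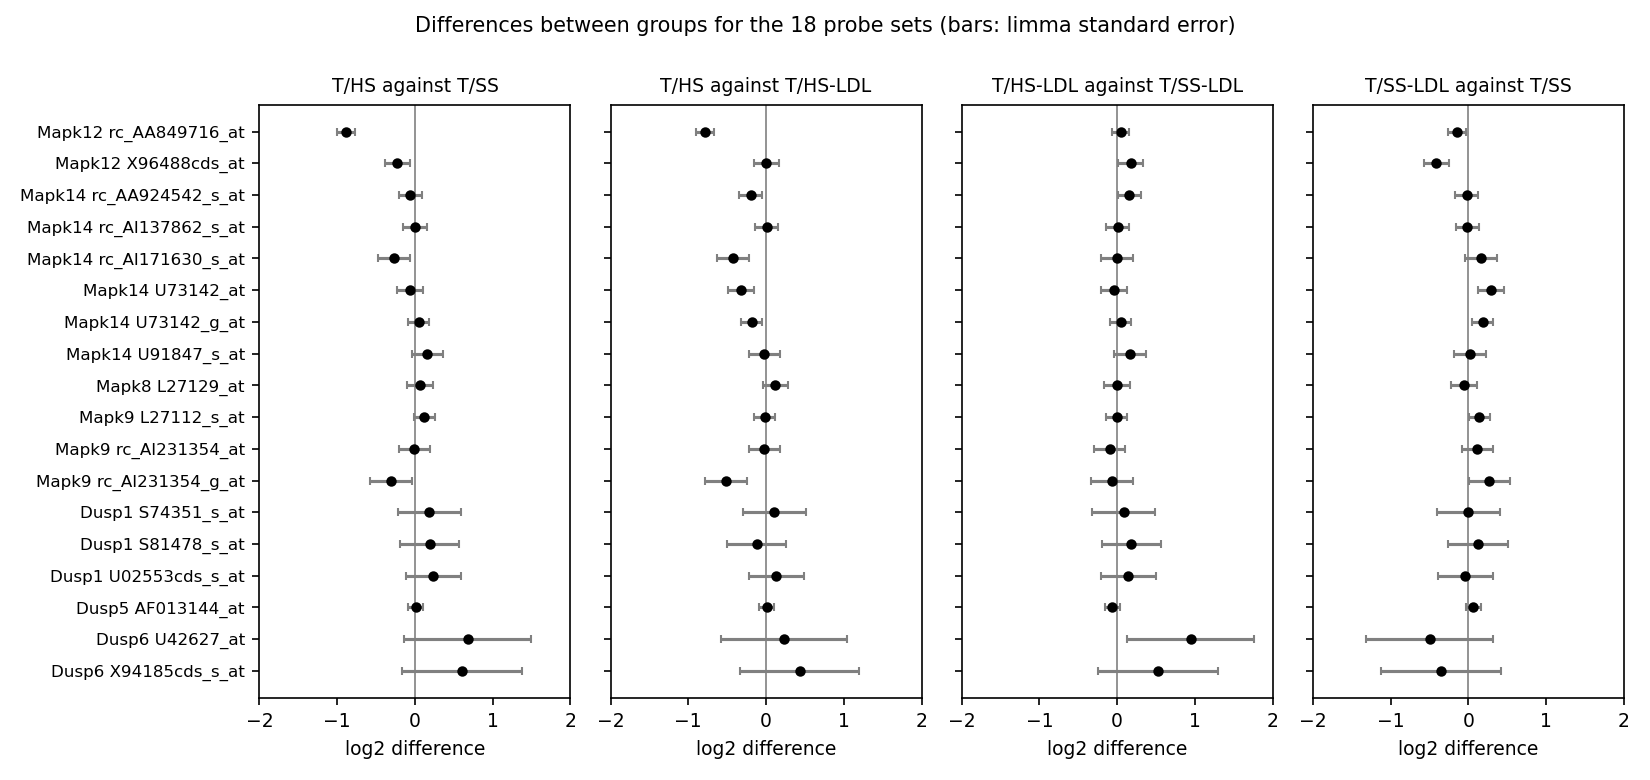
Log2 difference for each of the 18 member probe sets in 4 comparisons between groups, with bars of 1 limma standard error. Bars are widest for Dusp6 (0.82 on U42627_at) and narrowest for Dusp5 (0.10), and Mapk12 on rc_AA849716_at stands at -0.89 and -0.79 in the contrasts that selected it.

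Of 96 further genes listed for the MAP kinase pathways, 46 were measured, each by its brightest probe set, and 0 passed the limma threshold in any contrast. In T/HS against T/SS 21 were higher and 25 lower, with a median of -0.05, and 3 higher and 3 lower had an unadjusted limma p under 0.05, which is 13% of the 46 beside 8.8% of all probe sets. Against T/HS-LDL 14 were higher and 32 lower in T/HS, with a median of -0.12, and 0 higher and 5 lower were under 0.05 unadjusted, 10.9% beside 6.37%. In T/HS-LDL against T/SS-LDL 32 were higher and 14 lower (median 0.09), and 3 and 0 were under 0.05 unadjusted, 6.52% beside 3.79%. In T/SS-LDL against T/SS the counts were 25 and 21 (median 0.02), with 0 and 2 under 0.05 unadjusted, 4.35% beside 4.23%. Of all probe sets, 48.4%, 54.8%, 54.1% and 44.7% were higher in these contrasts, in the order given.

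By role, the upstream kinases and GTPases gave 7 higher and 5 lower of 12 in T/HS against T/SS, and 12 of 12 below 0 in T/HS against T/HS-LDL, with a median of -0.17. Of all probe sets, 45.2% were below 0 in that contrast, and the 12 include Araf, a Raf kinase, at 0.00 ± 0.10 and Map3k3 at -0.01 ± 0.16. Those with the highest levels were Cdc42, a small GTPase of the cytoskeleton, at -0.24 ± 0.12 against T/SS, Pak2, a kinase that such GTPases activate, at 0.02 ± 0.13, and Nras at 0.05 ± 0.13. Against T/HS-LDL, Cdc42 was at -0.29 ± 0.12 and Pak2 at -0.33 ± 0.13 (limma adjusted p 0.775 each). Of the 4 MAP kinase kinases measured, 3 had a lower level with T/HS. Map2k2 and Map2k1, the activators of ERK, were at 0.07 ± 0.15 and -0.09 ± 0.24, and Map2k5, the activator of Mapk7, at -0.21 ± 0.11.

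Map2k6, which activates p38 kinases, was chosen for naming after its values were seen. It read 10.40 and 10.22 in T/SS, 9.90 and 9.91 in T/HS, 10.30 and 10.40 in T/SS-LDL, and 10.30 and 10.28 in T/HS-LDL. Both T/HS samples were below all others, a pattern that 7.72% of all probe sets showed and that Mapk12 had on 1 of its 2 probe sets. Among the further pathway genes, Rac1, Map2k5, Cdc42, Arrb1 and Ppm1a had it too, so it does not set Map2k6 apart. The T/HS difference of Map2k6 was -0.41 ± 0.10 from T/SS and -0.39 ± 0.10 from T/HS-LDL. It is given as a description since it led to the choice of Map2k6.

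Among 3 other MAP kinases, all were on the lower side in T/HS against T/SS: Mapk7, which encodes ERK5, at -0.22 ± 0.13, Mapk6 at -0.48 ± 0.32 and Mapk4 at -0.04 ± 0.16. Mapk6 was at 10.37 in T/HS replicates 1 and 3 and at 11.11 in T/HS replicate 2, against 11.32 and 11.12 in T/SS, so that 1 sample carried its difference. Scaffolds and inhibitors gave 2 higher and 5 lower of 7, with Spry1, an inhibitor of receptor signalling to ERK, at -0.12 ± 0.12, Pebp1, an inhibitor of Raf, at -0.05 ± 0.15, and Gadd45a at -0.07 ± 0.36. Of 7 other phosphatases 2 were higher and 5 lower, with Ppm1b at -0.06 ± 0.29, Dusp7 at -0.05 ± 0.10 and Ppm1a at -0.58 ± 0.17 (limma adjusted p 0.455 for Ppm1a).

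Downstream of the kinases, both measured substrate kinases of p38 were on the higher side in T/HS against T/SS, Mapkapk3 at 0.18 ± 0.13 and Mapkapk2 at 0.36 ± 0.27. Transcription factor substrates gave 7 higher and 4 lower of 11 against T/SS, and 10 of 11 higher in T/HS-LDL against T/SS-LDL. Their medians were 0.02 and 0.18, and 0 of the 11 passed the limma threshold in either contrast. Of all probe sets, 48.4% and 54.1% were higher. Junb, a protein of the AP-1 factor, read 11.79 and 11.32 in T/SS, 12.57 and 12.18 in T/HS, 11.43 and 11.13 in T/SS-LDL, and 12.43 and 11.70 in T/HS-LDL. Shocked samples lay above sham samples in both pairs of groups, by 0.82 ± 0.28 with the vessel open (limma adjusted p 0.495) and 0.78 ± 0.28 with it tied (limma adjusted p 0.998). Jun, the main JNK substrate, was at 13.04 and 11.87 in T/SS and 12.74 and 12.19 in T/HS, a difference of 0.01 ± 0.43, and Fos differed by -0.15 ± 0.12. Jund, another AP-1 protein, had the largest difference of the 46 genes in size and was named after its values were seen. It read 9.82 and 9.14 in T/SS, 8.86 and 7.66 in T/HS, 9.08 and 8.44 in T/SS-LDL, and 7.58 and 8.70 in T/HS-LDL. Its T/HS difference from T/SS was -1.22 ± 0.52. With the vessel tied, the shock difference was -0.62 ± 0.52. The part of the neutrophil markers, whose levels are given above, in these differences was not tested.

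**Figure D5:**
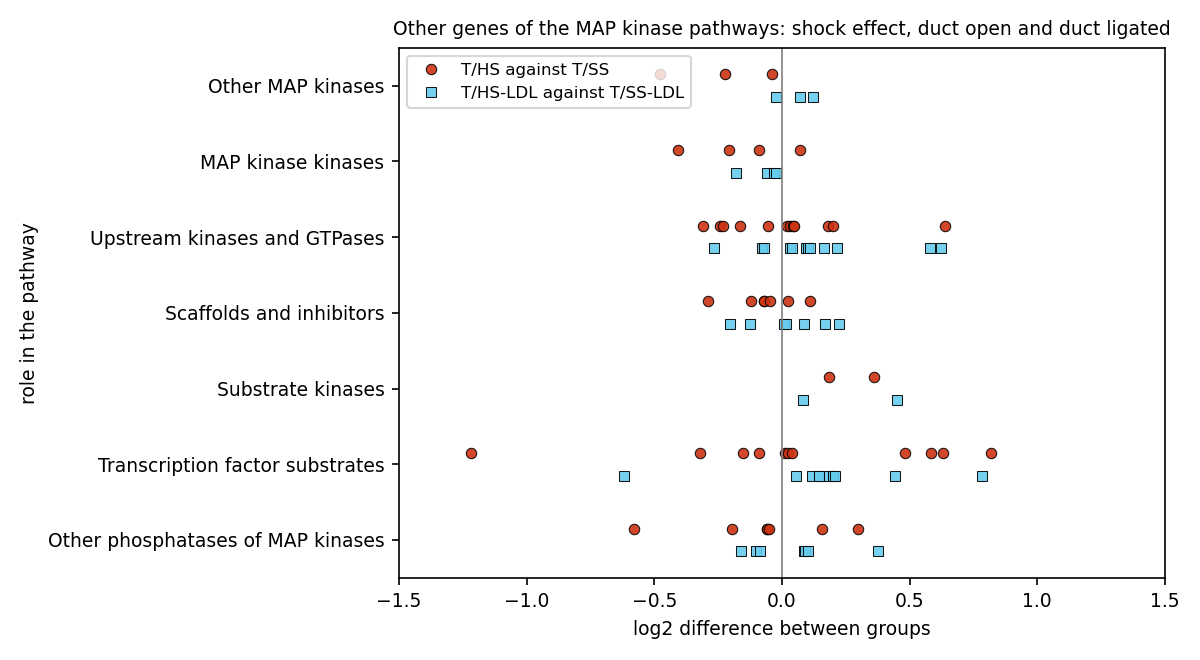
Log2 difference of each of the 46 further pathway genes by role, with circles marking T/HS against T/SS and squares marking T/HS-LDL against T/SS-LDL. Junb is the highest in both (0.82 and 0.78), Jund is the lowest in both (-1.22 and -0.62), and 0 of the 46 passed the limma threshold.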

How the data were processed

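Lung RNA on 12 arrays was analysed, 3 arrays per group. The deposited values are probe set intensities that the authors made with RMA (which corrects background, normalizes between arrays and combines the probes of a set), per the labels; the RMA version is not given in the sources used here. They are linear, and log2 of each intensity was used with no further scaling. The 59 array controls among 8799 probe sets were dropped. Symbols came from the platform annotation: 7006 of 8740 probe sets had 1 symbol, 308 several and 1426 none. Each member probe set was kept by itself.

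Near-identical arrays (robust SD of log2 differences under 0.1) were averaged to 1 sample. One limma 3.58.1 model (R 4.3.3, lmFit and eBayes) was fitted to the 4 groups over 8 samples, with 4 residual and 2.85 prior degrees of freedom. Tests were two-sided with Benjamini-Hochberg adjustment over 8740 probe sets at 0.05. Errors are limma standard errors, and intervals are 95% limma intervals. The labels call the arrays biological replicates. The number of arrays limits the precision.

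The members, lists and tests were chosen with earlier results of these data known. Named genes are all member probe sets, the 3 genes of each pathway role with the highest mean, any past the threshold, and the 6 most like Mapk12. Map2k6, Jund, Egr1 and the genes most like Dusp1 and Dusp6 were named after their values were seen. Replicate numbers were checked for pairing: same-numbered arrays of different groups correlated above 0.1 in 3 of 18 pairs (r -0.166 to 0.189), and no pairing was used. Alternatives tried were separate arrays, blocks, samples left out, the groups in the fit, normalization, a pseudocount of 50, a filter on dim probe sets and the variance model. A term for single arrays against averaged samples was added after seeing the data. Promoter sequences are from RefSeq, build GRCr8.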

Additional observations from a re-analysis of the deposited data

How the results depend on the processing

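With the 8 samples, 0 probe sets passed the limma threshold in any contrast. With the 12 arrays as separate samples, which counts near-identical arrays as independent, 629 passed for T/HS against T/SS, 372 for T/HS against T/HS-LDL, 127 in T/HS-LDL against T/SS-LDL, 141 in T/SS-LDL against T/SS and 1 in the interaction. With the replicate block on the 12 arrays these counts were 456, 130, 47, 21 and 1. With the averaged sample as a random block on the 12 arrays, 25 passed for T/HS against T/SS. Leaving out 1 sample at a time gave 0 to 139, 0 to 66, 0 to 2, 0 to 2 and 0 to 27. The 139, 66 and 27 came without T/HS replicates 1 and 3. Without T/HS replicate 2 the counts for the first pair of contrasts were 5 and 4. An arm then holds a lone sample that is assumed to vary like the other groups.

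Among the 17 members other than Mapk12 on rc_AA849716_at, 0 passed under any alternative run. That Mapk12 probe set was selected on T/HS against T/SS and against T/HS-LDL, so its calls there and in the interaction are no test. Counting it, 1 member passed for T/HS against T/SS with separate arrays, with the replicate block, with the random block and without T/HS replicates 1 and 3 (0 to 1 over samples left out). It also passed for T/HS against T/HS-LDL with separate arrays and with the replicate block, and for the interaction with separate arrays. The Mapk12 difference stayed between -0.98 and -0.79 from T/SS, and between -0.88 and -0.69 from T/HS-LDL, over all alternatives run. In T/HS-LDL against T/SS-LDL it lay between 0.01 and 0.08, and in T/SS-LDL against T/SS between -0.24 and -0.05. Of 504 values of the other members, 39 changed sign. A term for single arrays, chosen after seeing the data, gave 0 probe sets in every contrast. Depth is not defined for arrays, and 2 samples per group set the precision.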

Other observations

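The single array of each group differed from the group's averaged sample in some early response genes, which were chosen here after their values were seen. Jun was higher in the single array by 1.17 in T/SS, 0.55 in T/HS, 0.61 in T/SS-LDL and 0.58 in T/HS-LDL on the log2 scale. Junb was higher by 0.47, 0.39, 0.30 and 0.73 in the same order, and Gadd45a, a gene of the stress response, by 0.46, 0.35, 0.47 and 1.06. Egr1 differed by 0.58, 1.52, -0.14 and 0.95, lower in T/SS-LDL, and Fos by 0.11, 0.24, 0.13 and 0.12. Dusp1 on U02553cds_s_at differed by 0.87, -0.19, 0.48 and 0.76, higher in 3 of 4 groups. Over the 8 samples, Pearson's r of Dusp1 was 0.82 with Jun, 0.66 with Junb, 0.44 with Egr1 and 0.21 with Fos, as a description with no test.

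Dusp6 on U42627_at differed in the same way by -0.84, 0.48, 1.94 and -2.07, with no common direction, and its r with Dusp1 was -0.16. The genes most like Dusp6 over the 8 samples were Ptger3, a prostaglandin receptor, with r 0.942, Nos1, the neuronal nitric oxide synthase, with 0.931, and Drd3, a dopamine receptor, with 0.917. Those most like Dusp1 were Fgfbp3 with 0.952, RT1-DMa with 0.926 and Erp29 with 0.886. They had the highest r among 3628 probe sets for Dusp6 and 3627 for Dusp1. The candidates were probe sets of other genes with a mean at or above the array median. These r values are a description with no test, and shared regulation was not tested.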
